A study of Mus musculus with 3 samples.

Results

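The kinesins described here are all probes on the array, control spots aside, whose gene name or current symbol begins with Kif and a digit or with Kifc. This took 73 of 41174 probes, for 36 genes. Of these, 12 genes are mitotic (22 probes), 17 are transport kinesins (38 probes) and 7 others (13 probes) act in cilia, centrioles, microtubule turnover or are little placed. A probe was kept where, on 2 or more of the 3 arrays, at least one dye stood well above background, which held for 57 probes of 31 genes. The brightest kept probe stands for its gene, and 21 genes had more than 1 kept probe. No kept probe remained for 5 genes, the mitotic Kif2b, Kif2c and Kif15 and the transport kinesins Kif13b and Kif17. A further 5 probes carry a kinesin name only as a synonym (Kif20b and Kif26b) and lie outside the rule.

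Kinesins are motor proteins that walk along microtubules on energy from ATP. One set of them works in dividing cells, where it builds the spindle, moves chromosomes and organizes the midzone and midbody for cytokinesis, and its transcripts are known to peak late in the cell cycle. The other set hauls vesicles, mitochondria, endosomes and ciliary cargo between divisions, and several of its members are found mostly in neurons. Polo-like kinase 1, the product of Plk1, phosphorylates mitotic kinesins such as Kif20a and Kif23 during cytokinesis.

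The 3 aortas labelled Plk1(+/-), which the label gives as heterozygous for Plk1, were hybridised singly in Cy5 on 3 two-colour arrays of 1 slide, each against the same pool of 3 wild-type aortas in Cy3. How the allele was made is not given in the sources used here. The labelled Plk1(+/-) animals were of 129/CD1 strain and 3 to 5 months old. The dyes were never exchanged, so dye and genotype cannot be told apart, and the pool counts as 1 control sample whose own spread was not measured. All ratios are log2 of the labelled sample over the pool, in the order sample 1, sample 2, sample 3.

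The targeted gene does not set the labelled samples apart. Plk1 read -0.06, -0.08 and 0.42, averaging 0.10 (limma, adjusted p = 0.705), so its signal was not detectably lower in the samples labelled Plk1(+/-). Where its probe lies relative to the changed part of the allele was not analysed here. Smooth muscle and endothelial markers were detected in each dye of every array, 10 of 10 genes each, as were 18279 of all 22109 features. The kept genes of every other marker list were too, so this detection does not single out the aorta. Cy5 was well above background at 77.0% to 80.8% of probes and Cy3 at 66.0% to 69.0%, so a dim transcript was more often measured in the labelled samples than in the pool. RNA came from whole vessels, in which fewer cells of a type and less RNA per cell cannot be told apart.

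The promoters of the mitotic kinesins share letters that the transport kinesins mostly lack. RefSeq promoters of build GRCm38.p6, 300 bases each, were matched for 28 of the 36 genes and searched on both strands for TTTGAA or else TTTAAA, the letters of the cell cycle homology region, through which cell cycle genes are held off outside mitosis, and for CCAAT. The E2F letters searched were TTTCGCG, with the forms TTTGGCG as well as TTTCCCG as well as TTTGCGC. The motifs are counted separately and their matches may share bases. Windows of 5 mitotic genes, and of 1 transport gene without a match, are shown from -100 to 20 around the transcript start, in the gene's own direction, because they carry or lack these letters next to the start. Capitals mark matches on either strand.
Kif22, chr7:127042401-127042520, minus strand: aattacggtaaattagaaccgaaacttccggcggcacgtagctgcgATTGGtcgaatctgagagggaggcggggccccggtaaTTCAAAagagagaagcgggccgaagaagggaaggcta
Kif23, chr9:61946780-61946899, minus strand: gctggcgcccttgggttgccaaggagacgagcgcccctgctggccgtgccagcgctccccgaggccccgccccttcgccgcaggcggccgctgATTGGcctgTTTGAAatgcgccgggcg
Kif11, chr19:37376282-37376401, plus strand: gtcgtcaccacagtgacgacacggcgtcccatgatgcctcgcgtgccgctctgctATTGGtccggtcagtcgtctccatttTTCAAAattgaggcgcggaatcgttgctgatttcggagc
Kif14, chr1:136467748-136467867, plus strand: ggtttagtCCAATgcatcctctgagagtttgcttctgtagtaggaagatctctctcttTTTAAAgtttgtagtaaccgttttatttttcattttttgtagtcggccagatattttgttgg
Kif18b, chr11:102925105-102925224, minus strand: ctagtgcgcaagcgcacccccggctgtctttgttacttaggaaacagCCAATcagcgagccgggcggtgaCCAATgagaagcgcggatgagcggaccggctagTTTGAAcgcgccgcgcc
Kif5c, chr2:49619186-49619305, plus strand: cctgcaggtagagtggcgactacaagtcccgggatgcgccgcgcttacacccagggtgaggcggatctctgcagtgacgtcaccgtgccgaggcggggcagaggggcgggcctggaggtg
The cell cycle homology letters were found in 9 of 11 mitotic promoters, against 27.6% of all 32851 promoters of this length. They were in 1 of 13 transport promoters, that of one Kif1a start. CCAAT was in 8 of 11 mitotic and 4 of 13 transport promoters (3 of 11 transport genes), against 37.4% of all. E2F letters were in 2 of 11 mitotic promoters (Kif15 and Kif18a), against 7.02% of all. They were also in 2 of 13 transport promoters, which are overlapping entries of 1 gene, Kif1b, and hold the same match. A match is a run of letters and not a measured site.

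No kinesin passed the test across all features. Of 22109 features, 204 (0.923%) had a limma adjusted p under 0.05, 8 higher and 196 lower, and 0 of the 31 kept kinesins were among them. The lowest adjusted p of a kinesin was 0.155, for Kifc5b. At an unadjusted p under 0.05 there were 9 of 31 kinesins, against 18.9% of all features. They were 4 mitotic kinesins with higher signal in the labelled samples (Kifc5b, Kif22, Kif23 and Kif14), 1 transport kinesin with higher signal (Kif21b), 3 with lower signal (Kif1c, Kif5b and Kif13a) and Kif7, also lower. Over all features 9.15% were higher and 9.79% lower at that level.

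The mitotic kinesins read above the pool together. Their median log2 ratio was 0.22, 0.19 and 0.55 on the 3 arrays, a mean of 0.32 ± 0.20 (SD, n = 3), against 0.034, 0.010 and 0.035 for all features. Of 12 mitotic genes, 9 were higher than the pool on all 3 arrays and the other 3 had no kept probe, whereas 26.3% of all features were higher on all 3. Some of the 9 were kept through Cy5 alone, so their count is a description. Only Kif22, Kif23, Kif4 and Kif20a were above background in both dyes on every array. These 4 read higher on all 3 arrays, with medians of 0.15, 0.23 and 0.61, where 24.6% of features detected that well did so. Among features above background in Cy3 on no array the share was 37.8%. Without any filter on dim probes the median over all 12 genes was 0.25 ± 0.21, and 11 of the 12 had a mean above 0. Of the 9 mitotic probes that were not kept, 4 had a mean above 0 and 0 were higher on all 3 arrays.

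**Figure D1:**
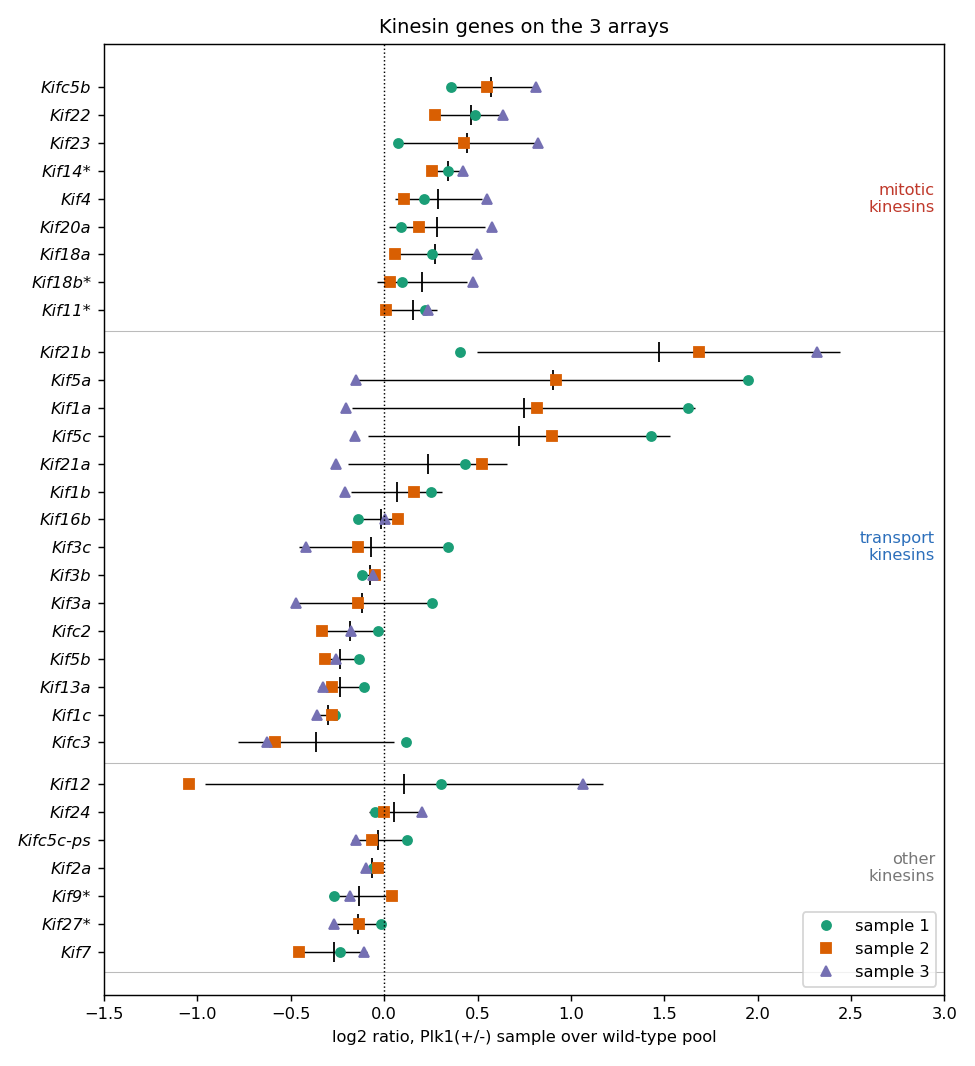
Log2 ratio of each kept kinesin gene (31 genes), the labelled Plk1(+/-) sample over the wild-type pool, 1 marker per sample, with the mean as a tick and the SD over 3 arrays as a line; an asterisk marks genes not well above background in the pool on any array. The 9 mitotic kinesins lie right of 0 in each sample, and the widest spreads are those of Kif12, Kif5a, Kif21b, Kif1a and Kif5c.

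Among the chromosome and spindle motors the mean ratios lay between 0.15 for Kif11 and 0.57 for Kifc5b. Kifc5b, which stands here under the current symbol of the accession that the files name Kifc1, is a minus-end motor that focuses spindle poles. It read 0.36, 0.55 and 0.81, a mean of 0.57 ± 0.23 (SD, n = 3), 1.49-fold, and its adjusted p from limma was 0.155. The mean was 0.94 with normexp offset 0 and 1.05 with the deposited log ratio. Its second probe read 0.05, 0.30 and 0.36, lower in size and of the same sign. Kifc1, Kifc5b and Kifc5c-ps are near-identical copies, so which of them the probes measured is uncertain.

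Kif22, a chromokinesin that pushes chromosome arms towards the metaphase plate, read 0.49, 0.27 and 0.64, a mean of 0.47 ± 0.18 with an adjusted p of 0.166 from limma (n = 3). In normalized log2 signal it stood at 9.76, 9.88 and 10.10 in the labelled samples, against 9.27, 9.60 and 9.46 in the pool. The pool values are repeat readings of the same pool and do not show the spread between wild-type aortas. Kif4, the other chromokinesin, which also sets the length of the midzone, read 0.21, 0.10 and 0.55 on 1 probe and -0.02, 0.06 and 0.57 on a probe that overlaps it on chromosome X. Sample 3 was thus the highest for both chromokinesins and for both probes of Kif4.

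Kif11 crosslinks and slides the microtubules of the bipolar spindle. Its kept probe read 0.22, 0.0076 and 0.24, while 2 dimmer probes that were not kept read between -0.24 and 0.16. Kif18a, which damps chromosome movements at the plate, read 0.25, 0.06 and 0.50, and Kif18b, which shortens astral microtubules, read 0.10, 0.034 and 0.48. In all 3 of these genes sample 2 was lowest and sample 3 highest. The pool signal of Kif11 and Kif18b was not well above background on any array. This leaves bounds of 1.05-fold and 1.13-fold on their means, with adjusted p of 0.369 and 0.393 from limma. With median centring the means of Kif11 and Kif18b were -0.30 and -0.22, so neither bound is an established minimum. The bound sets the mean normalized signal of the labelled samples against the higher of the pool's own signal and the lowest signal well above background on each array, and without exchanged dyes it is open to dye bias.

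The cytokinesis motors read higher too. Kif20a carries the chromosomal passenger complex to the midzone and docks Plk1 there. It read 0.09, 0.19 and 0.58, and a second probe, which overlaps the first, read 0.12, 0.28 and 0.73. Kif23, the motor of the centralspindlin complex, read 0.07, 0.43 and 0.82, averaging 0.44 ± 0.38 (SD, n = 3; limma, adjusted p = 0.261). Both probes of Kif23 cover more of the genome than their 60 bases (build mm7) and abut each other, and since they differ in sample 1 they are shown side by side.
Kif23 brighter probe, chr9:61946253-61946493, minus strand: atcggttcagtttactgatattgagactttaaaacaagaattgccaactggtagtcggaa
Kif23 second probe, chr9:61946494-61947614, minus strand: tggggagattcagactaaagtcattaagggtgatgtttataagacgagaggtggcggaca
The first read higher in all 3 labelled samples, and the second read -0.20, 0.52 and 0.45, with sample 1 below the pool. In normalized log2 signal the first stood at 7.11, 7.53 and 8.06 in the labelled samples, against 7.03, 7.10 and 7.24 in the pool, so sample 1 lay within the range of the pool. Kif14, which binds citron kinase and Prc1 at the midbody, read 0.34, 0.25 and 0.42, a mean of 0.34 ± 0.085 (SD, n = 3), and its adjusted p from limma was 0.172. With normexp offset 0 its mean was 0.86 ± 0.264 and with the deposited log ratio 1.17 ± 0.868, so its size and its spread both depended on the processing. Its pool signal was not well above background on any array, which leaves a bound of 1.09-fold on the mean. With median centring the mean of Kif14 was -0.19, so that bound is not an established minimum.

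The 3 mitotic genes without a kept probe gave no direction. Kif2c and Kif2b, microtubule depolymerases of the centromere and spindle, read between -0.18 and 0.26 on their only probes. The brightest probe of Kif15, which backs up Kif11 on the spindle, read -0.10, 0.09 and 0.18. Kif20b, a cytokinesis kinesin listed in the files under another name and so outside the rule, read 0.32, 0.35 and 0.82.

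**Figure D2:**
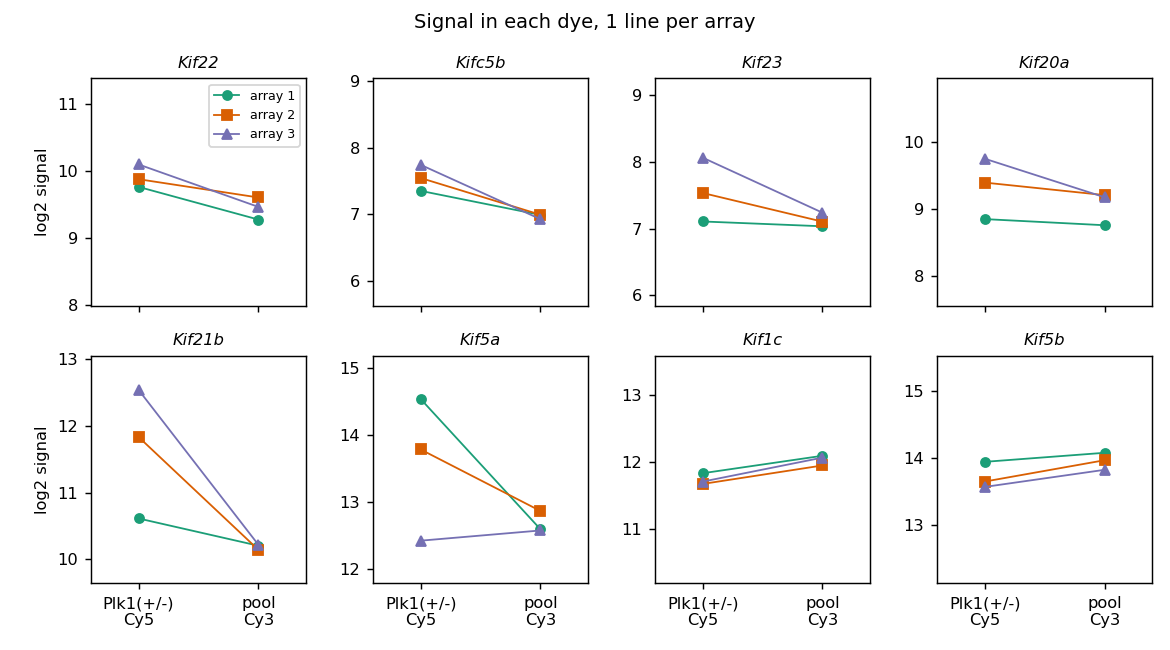
Normalized log2 signal of 8 kinesins in Cy5 (Plk1(+/-) sample, left) and Cy3 (wild-type pool, right) of each array, 1 line per array; every panel spans the same number of log2 units. The pool signals of Kif21b and Kif5a differ little between arrays, and their Cy5 signals differ widely between samples.

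Genes that act with the mitotic kinesins also read above the pool, most of all in sample 3. Of 25 partner genes of spindle, midzone and cell cycle control, 24 were kept. Their medians were 0.12, 0.18 and 0.64, 16 of the 24 were higher than the pool on all 3 arrays, where 26.3% of all features were. At an unadjusted limma p under 0.05, 8 were higher, where 9.15% of all features were, and 0 passed the adjusted test. Anln, a cytokinesis scaffold, at 0.0062, -0.69 and -0.40, and Nusap1, a spindle microtubule binder, at -0.35, -0.37 and 0.38, went the other way on average and were chosen for mention after their values were seen. The 4 with the smallest p were Incenp (0.55, 0.19 and 0.63) and Cdca8 (0.40, 0.33 and 0.92), both of the chromosomal passenger complex, Spag5 (0.31, 0.29 and 0.65), a spindle protein, and Kntc1 (0.29, 0.18 and 0.56), a kinetochore checkpoint protein. Their adjusted p lay between 0.190 and 0.218. Within both lists sample 3 had the highest median.

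Lymphocyte markers read above the pool in the labelled samples, and 0 of 15 passed the adjusted test. They had medians of 0.30, 1.53 and 2.12, and 14 of 15 were higher on all 3 arrays, where 26.3% of all features were. The summed normalized signal of these markers was 18268, 48877 and 86936 in the labelled samples, against 13884 to 16871 in the pool. All 15 were above background in both dyes on every array, T cell markers such as Cd3d and B cell markers such as Cd79b included. The part of lymphocytes in the mitotic kinesin signal was not tested. By median, the 4 mitotic kinesins detected in both dyes and the partner genes had the same order of samples as the lymphocyte markers. Of the 4, Kif20a and Kif23 had that order singly, while Kif22 and Kif4 read lowest in sample 2. The median over the 9 kept mitotic kinesins was also lowest in sample 2.

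**Figure D3:**
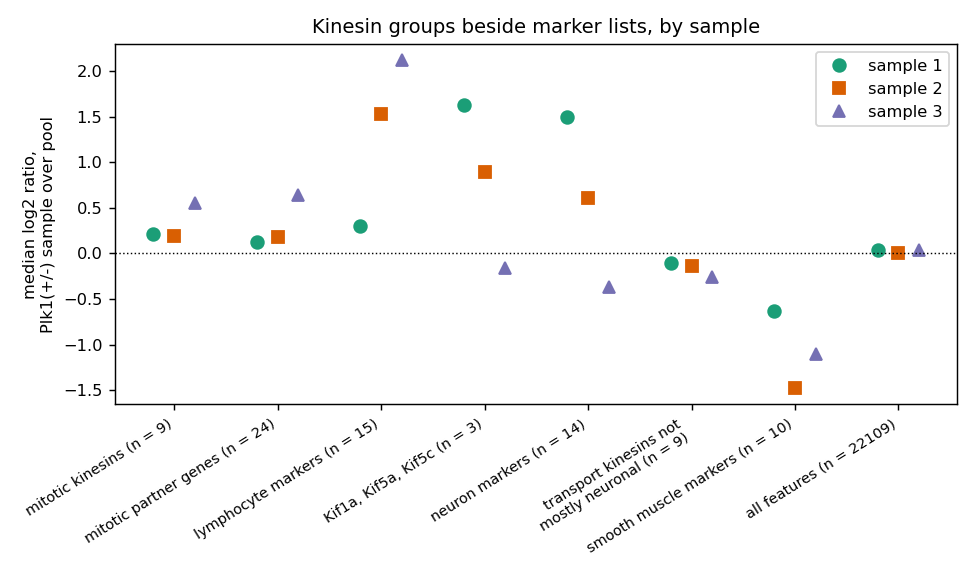
Median log2 ratio (Plk1(+/-) sample over wild-type pool) of kinesin groups, partner genes and marker lists, 1 marker per sample, with the number of genes in brackets. Sample 3 is highest for mitotic kinesins, their partners and lymphocyte markers, and sample 1 is highest for Kif1a, Kif5a and Kif5c and for neuron markers.

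The transport kinesins had no common direction. Their medians were 0.25, -0.05 and -0.21, a mean of -0.0038 ± 0.23 (SD, n = 3). Of the 15 kept genes 1 was higher than the pool on all 3 arrays and 5 were lower on all 3. Of all features 26.3% were higher on all 3 and 19.1% lower on all 3. All 15 were above background in both dyes on every array. The mitotic median minus the transport median was 0.32 ± 0.40 over the arrays, a difference within its spread. It was 0.10 when sample 3 was left out and 0.50 when sample 1 was left out.

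Kif5a, Kif1a and Kif5c, all mostly neuronal motors, shared 1 pattern across samples, high in sample 1, between in sample 2 and below the pool in sample 3. The 6 kept mostly neuronal genes, these among them, had medians of 0.92, 0.86 and -0.17, but did not all share that pattern. Kif3c had the same order of samples at smaller size (0.34, -0.14 and -0.42). Kif21b was highest in sample 3 (0.41, 1.69 and 2.32), and Kifc2 lay below the pool in every sample (-0.035, -0.33 and -0.18). Kif5a, a heavy chain of neuronal kinesin-1 that carries neurofilaments and organelles along axons, read 1.95, 0.92 and -0.15. Kif1a, the carrier of synaptic vesicle precursors, read 1.63, 0.82 and -0.20, and Kif5c, another neuronal kinesin-1 heavy chain, read 1.43, 0.90 and -0.16. The spread over samples exceeded each mean, and their limma adjusted p lay between 0.321 and 0.350. For Kif5a the normalized log2 signal was 14.54, 13.79 and 12.42 in the labelled samples, against 12.59, 12.87 and 12.57 in the pool.

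Neuron markers had the same order of samples. The medians of 14 kept genes of 15 were 1.49, 0.61 and -0.37, and their summed normalized signal was 112949, 69406 and 35932 in the labelled samples, against 42555 to 45254 in the pool. These sums hold saturated spots of Uchl1, the brightest gene of the list, and are not exact. All 14 were positive in samples 1 and 2 and negative in sample 3, among them Th, the enzyme that limits catecholamine synthesis, at 1.39, 0.73 and -0.42. The part of nerve tissue in the kinesin signal was not tested. Among the partners of transport kinesins, Klc1, a kinesin light chain chosen for mention after its values were seen, read 1.91, 0.94 and -0.11.

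The second probes of these 3 genes showed far less. That of Kif5a read 0.29, 0.21 and 0.0012, that of Kif1a read 0.31, 0.18 and -0.01, and that of Kif5c read 0.025, 0.018 and -0.06. Each of the second probes was not well above background in the pool on any array. They lie away from the bright probes, and those of Kif1a and Kif5a cover more of the genome than their 60 bases (build mm7). The dim probes of Kif5a and Kif1a are printed with the dimmest probe of Kif21b, because the size of the ratio depended on the probe for these genes, as it did for Kif5c.
Kif5a dim probe, chr10:126734515-126734699, minus strand: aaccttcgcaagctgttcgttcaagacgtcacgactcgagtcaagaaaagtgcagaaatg
Kif1a dim probe, chr1:92927766-92928283, minus strand: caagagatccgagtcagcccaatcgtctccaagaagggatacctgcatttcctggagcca
Kif21b dimmest probe, chr1:136059185-136059713, plus strand: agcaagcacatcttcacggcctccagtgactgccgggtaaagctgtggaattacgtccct

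Kif21b, a kinesin that also limits microtubule growth and is known from neurons and T cells, had the highest mean of all kinesins. Its brightest probe read 0.41, 1.69 and 2.32, a mean of 1.47 ± 0.97 (SD, n = 3), 2.77-fold, with a 95% interval of the log2 ratio from 0.42 to 2.53 and a limma adjusted p of 0.202. In normalized log2 signal it stood at 10.61, 11.83 and 12.54 in the labelled samples, against 10.21, 10.15 and 10.22 in the pool. The pool values are repeat readings of the same pool and do not show the spread between wild-type aortas. The 2 further probes of Kif21b read 0.04, 0.72 and 0.96 and 0.16, 0.05 and 0.29. All 3 probes were positive on all arrays, and their means were 1.47, 0.57 and 0.17. On the 2 brighter probes the order of samples was that of the lymphocyte markers given above and not that of Kif1a, Kif5a and Kif5c, and on the dimmest probe sample 2 was lowest. Whether lymphocytes contributed to it was not tested.

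**Figure D4:**
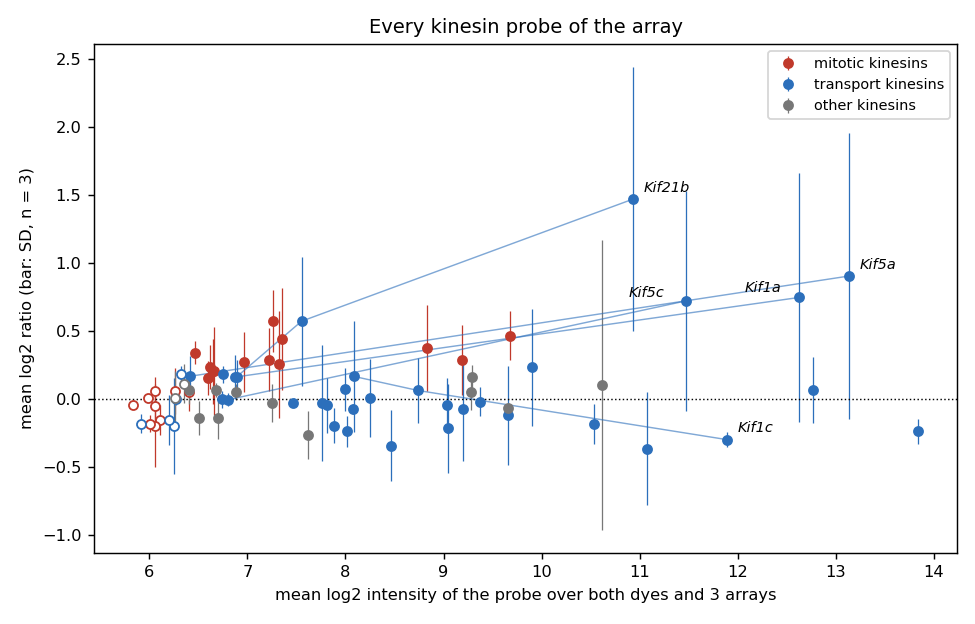
Mean log2 ratio of each kinesin probe (73 probes, vertical bars the SD over 3 arrays) against its mean log2 intensity over both dyes; open symbols are the 16 probes not kept, and lines join the probes of Kif21b, Kif1a, Kif5a, Kif5c and Kif1c. The bright probes of Kif21b, Kif5a, Kif1a and Kif5c lie above 0.7 and their dim probes lie closer to 0.

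The broadly expressed transport kinesins had medians below the pool, with single genes on both sides of it. Without the 6 kept mostly neuronal genes, the medians of the other 9 were -0.11, -0.14 and -0.26, and 4 of the 9 were lower on all 3 arrays, where 19.1% of all features were. Kif5b, the kinesin-1 heavy chain found in most tissues, read -0.14, -0.32 and -0.26, averaging -0.24 ± 0.093 (SD, n = 3; limma, adjusted p = 0.228), and a second probe read 0.18, -0.09 and -0.22. Kif13a, which carries endosomal vesicles, read -0.11, -0.28 and -0.33, with an adjusted p of 0.238 from limma, and 2 further probes had means of -0.05 and -0.03. Kif1c, a carrier of vesicles between Golgi and cell margin, read -0.26, -0.28 and -0.36, a mean of -0.30 ± 0.053 with an adjusted p of 0.177 from limma (n = 3).

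The probes of Kif1c did not share a direction. Its other 2 kept probes read -0.22, 0.17 and 0.23 and 0.50, 0.29 and -0.29. Kifc3, a minus-end motor of the Golgi and of cell junctions, had the lowest mean of the kinesins, at 0.12, -0.59 and -0.63, and its second probe read -0.05, -0.44 and -0.54. Sample 1 stood apart from the other samples on both probes of Kifc3.

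The heterotrimeric kinesin-2 genes, which drive transport in cilia and, with Kif3c, in neurons, gave mixed signs. Kif3a read 0.26, -0.14 and -0.47 and Kif3c read 0.34, -0.14 and -0.42, so sample 1 was highest and sample 3 lowest in both. Kif3b read -0.12, -0.05 and -0.06 on its brighter probe and 0.03, 0.25 and -0.06 on the other. Kif1b, a carrier of mitochondria and synaptic vesicle precursors, read 0.25, 0.16 and -0.21, and its other 3 kept probes had means of -0.22, 0.0077 and -0.20. Kif21a, the relative of Kif21b, read 0.43, 0.52 and -0.26 on 1 probe and 0.39, -0.01 and -0.46 on the other. Kif16b, an early endosome motor, read -0.14, 0.08 and 0.0062, and its dim second probe read 0.26, 0.15 and 0.14. Kifc2, a neuronal minus-end motor, read -0.035, -0.33 and -0.18.

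Partners of the transport kinesins had no common direction either. All 29 were kept, with medians of 0.22, 0.033 and -0.09, and 6 were higher and 5 lower on all 3 arrays, where 26.3% and 19.1% of all features were. At an unadjusted limma p under 0.05, 4 were higher and 1 lower, against 9.15% and 9.79% of all features, and 0 passed the adjusted test. The 4 with the smallest p were Dctn3, a dynactin subunit, at 0.58, 0.47 and 0.48 with an adjusted p of 0.0892 from limma, Hap1, an adaptor of kinesin and dynein, at 0.86, 0.62 and 0.35, Klc3, a kinesin light chain, at -0.58, -0.73 and -0.29, and Map7, which recruits kinesin-1 to microtubules, at 0.40, 0.40 and 0.24.

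Smooth muscle markers were lower in the labelled samples, with medians of -0.63, -1.47 and -1.10. All 10 were lower on all 3 arrays, where 19.1% of all features were. Of the 10, Acta2 and Tagln passed the adjusted limma test, and both had saturated spots, as did Cnn1. Saturation was flagged 574, 627 and 595 times in Cy5 on the 3 arrays, and 66, 104 and 67 times in Cy3. A clipped Cy5 signal lowers the ratio, so the size, spread and adjusted p of saturated genes are not reliable. With saturated features left out, 0 features of the array passed by limma, and 3815 had an unadjusted p under 0.05. The summed normalized signal of the smooth muscle markers was 178831, 125258 and 161727 in the labelled samples, against 331280 to 365830 in the pool. These sums hold the saturated spots of Acta2, Tagln and Cnn1, the brightest genes of the list, and are not exact. Adventitial fibroblast markers had medians of -0.32, -0.86 and -0.53, and endothelial markers 0.055, -0.06 and -0.18. The part of these cell types in the lower values of Kif5b, Kif13a, Kif1c and Kifc3 was not tested.

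The remaining 7 kinesins had medians of -0.05, -0.07 and -0.11. Kif12, a kinesin of kidney epithelium, had the widest spread of all, at 0.30, -1.05 and 1.06, with the labelled samples on both sides of the pool, and a second, dim probe read 0.11, 0.0077 and 0.08. Kif7, which relays Hedgehog signals at the tip of the primary cilium, read -0.24, -0.45 and -0.11, averaging -0.27 ± 0.18 (SD, n = 3; limma, adjusted p = 0.253). Kif24, which acts at the centriole, read -0.05, -0.00052 and 0.20.

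Kif2a, a microtubule depolymerase of neurons and of the spindle, read -0.06, -0.035 and -0.09 on its brighter probe and 0.22, 0.06 and 0.21 on its second, so its direction rested on the probe. Kifc5c-ps, annotated as a pseudogene, read 0.12, -0.07 and -0.15 on 1 probe and 0.16, -0.04 and 0.07 on the other. Kif9 and Kif27, kinesins of motile cilia, were not well above background in the pool on any array and read -0.27, 0.04 and -0.18 and -0.015, -0.13 and -0.27. In all, 8 genes had kept probes that differed in the sign of their mean.

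The setting of the mitotic against the transport kinesins depended on the normalization. Each array was normalized by a loess curve over intensity, which brought the median of all features to 0.06, 0.045 and 0.0087 in the dim, middle and bright range of mean log2 intensity (under 7.5, 7.5 to 10, and 10 and over). With each array centred on its median alone these were -0.26, 0.24 and 0.44. The dim range held 7 mitotic kinesins and 0 transport kinesins, and the bright range held 0 and 9. Median centring moved the median of all features from 0.037 to 0.23, and the mitotic kinesins then read 0.14 and the transport kinesins 0.33, a difference of -0.19 ± 0.45 (SD, n = 3). It called 9783 features, 7155 higher and 2628 lower, and 10 kinesins: Kif11, Kif27 and Kif9 lower, and Kif1b, Kif20a, Kif21b, Kif22, Kif2a, Kif5c and Kifc5b higher. Of the mitotic genes 6 of 9 had a mean above 0 there, and Kif11, Kif14 and Kif18b read below the pool.

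**Figure D5:**
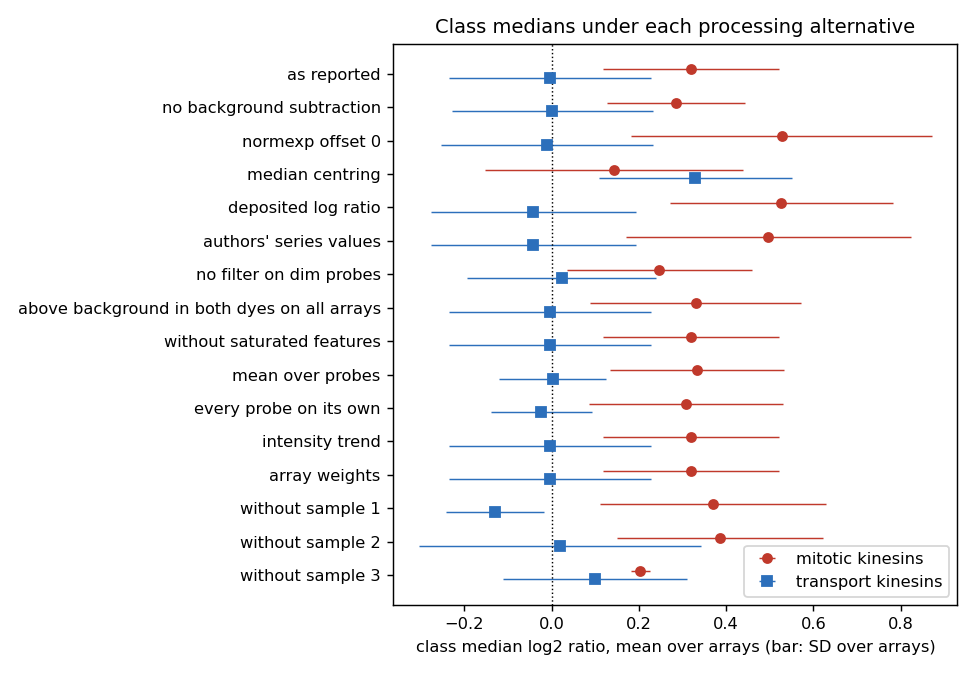
Median log2 ratio (Plk1(+/-) sample over wild-type pool) of mitotic and transport kinesins under each processing alternative, as the mean over arrays with the SD over arrays as a bar. The mitotic median stays between 0.14 and 0.53, and the transport median leaves the neighbourhood of 0 with median centring, at 0.33.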

How the data were processed

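The scanner files were deposited as written by Agilent's Feature Extraction software (version 9.5.3.1, from the file headers); the mean signal of a spot is an intensity on a linear scale that the authors had not yet corrected for background or dye. Per the file headers, the same files give a log10 ratio of processed Cy5 over Cy3. The authors' series values are log2 and matched that ratio with slopes of 0.997, 0.999 and 0.998 and medians of -0.02, -0.0052 and -0.03; their centring step is not given in the sources used here. Although a label mentions embryonic stem cell culture, the tissue is given as aorta, which was followed.

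Signals were corrected with normexp (offset 50) and normalized by loess within each array, with weight 0 for control spots, using limma 3.58.1 (R 4.3.3). Outlier spots (100 to 136 per array) were dropped, and spots of a probe averaged. Ratios were compared with 0 by lmFit and eBayes in a two-sided test, Benjamini-Hochberg adjusted over 22109 features. The p-values measure the spread between 3 labelled biological replicates, which are few and limit the precision. Normalized signals and their sums are after loess and Aquantile. Names were updated through a RefSeq listing of GRCm38.p6, by accession for 22951 probes and by synonym for 3109. Coordinates of probes are in mm7, as deposited; exon annotation and protein sequences were not used here.

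Every kinesin could be named. The rule for values by sample took those with an unadjusted p under 0.05, the 5 highest and 5 lowest means, the 3 brightest of each class and those whose probes differ in sign; the other kinesins are given by sample too, outside that rule, so that each is accounted for. Of partners it took the 4 with the smallest p, and Plk1, and of cell type lists at most 3 members. Kif1a, Kif5a and Kif5c were grouped after their values were seen. The members and lists were chosen with earlier results of these data known. The lists hold lymphocyte, neuron, smooth muscle, adventitial fibroblast, endothelial, Schwann cell, skeletal muscle and white fat markers. Alternatives covered background correction, normalization, source of the ratio, filters, probe choice, variance model and each replicate left out.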

Additional observations from a re-analysis of the deposited data

How the results depend on the processing

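No paired analysis was possible because there is 1 group of samples and the pool is shared by all arrays. Of 31 kinesins, 15 kept their direction under every alternative run and 16 turned in at least 1. With median centring Kif11 read -0.30, Kif14 -0.19, Kif18b -0.22, Kif16b 0.28, Kif1c 0.14, Kif2a 0.25, Kif3a 0.20, Kif3b 0.053, Kif3c 0.21, Kif5b 0.25, Kifc2 0.20 and Kifc3 0.042, the transport median was 0.33, the difference of medians -0.19, and 10 kinesins and 9783 features passed the test. With the mean over probes Kif16b read 0.081, Kif1b -0.084, Kif2a 0.050 and Kifc5c-ps 0.016. With array weights Kif12 read -0.39 and Kif16b 0.023. The mitotic median was 0.53 with normexp offset 0 and 0.53 with the deposited log ratio. Features past the test numbered 91 with offset 0, 125 with the deposited ratio, 434 with array weights, and 0 by limma once features with saturated spots were taken out (3815 at an unadjusted p under 0.05). Leaving out each replicate gave 0 to 175 features (0 without replicate 2 and without replicate 3), a mitotic median of 0.20 to 0.39, a transport median of -0.13 to 0.099, a difference of 0.10 to 0.50, and 0 kinesins. Over the same omissions these kinesins turned: Kif12 (-0.37 to 0.68), Kif16b (-0.066 to 0.041), Kif1b (-0.024 to 0.21), Kif24 (-0.024 to 0.10), Kif3a (-0.31 to 0.058), Kif3c (-0.28 to 0.10), Kifc5c-ps (-0.11 to 0.028). Apart from median centring, 0 kinesins passed the adjusted test under any alternative. Intensity trend, array weights and leaving out saturated features cannot move the medians by construction. Other causes were not tested. Pool signals near background limit Kif11, Kif14 and Kif18b to bounds, and since all of them turned with median centring these are not established minimums.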

Other observations

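Values of the marker lists that stand beside no kinesin result are given here. Schwann cell markers (8 genes) had median log2 ratios of 0.27, 0.12 and 0.10 in the samples labelled Plk1(+/-) over the pool. Skeletal muscle markers (10 genes) had medians of -0.72, -0.94 and -2.95, so sample 3 read lowest for them. White fat markers (8 genes) had medians of -1.24, -1.13 and -1.13. Of these 8, 6 had saturated spots, so their ratios and the medians of the list are not exact and may read too low. The 3 that passed the adjusted limma test were all among the saturated. Without saturated spots, Retn read -1.17, 0.39 and -0.65 and Lep read 0.14, -0.13 and -1.35, so their signs were mixed. Kif26b, a kinesin listed in the files only under older names, read 0.0051, 0.026 and 0.10 on its brighter probe.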
